A study of Mus musculus with 14 samples.

Results

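Kupffer cells are the resident macrophages of the liver, and 10 genes that mark them or macrophages in general were followed here through livers that lacked or kept Rbbp5 in hepatocytes, with and without tunicamycin. The genes were Clec4f, Vsig4, Cd5l, Timd4, Marco, C1qa, C1qb, C1qc, Csf1r and Cd68, chosen by name from the 24411 genes of the count files. All 10 had reads in every sample and passed the filter on low counts, so all 10 are among the 9644 genes tested.

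Livers came from male littermates aged 5 to 7 months. All mice carried Rbbp5 flox/flox, and Rbbp5 encodes a shared core subunit of histone H3 lysine 4 methyltransferases. Mice without the Cre transgene (Alb-CRE -/-) are called WT here, and mice with it (Alb-CRE +/-) are called LKO. The albumin promoter drives Cre in hepatocytes, so Kupffer cells are not the cells targeted by the deletion. Tunicamycin blocks N-linked glycosylation and stresses the endoplasmic reticulum. It was injected into the peritoneum at 0.05 mg/kg in 500 µl of 3% DMSO in PBS, and control mice received 3% DMSO in PBS. Livers were taken 8 h after injection. Vehicle livers gave 3 WT and 4 LKO libraries, and tunicamycin livers also gave 3 WT and 4 LKO libraries. The labels do not say that each library is a separate mouse, so p-values measure the spread between samples.

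Kupffer cells line the sinusoids, where they bind and engulf bacteria, dying cells and old red cells from the portal blood. Their survival depends on signalling through the receptor Csf1r, and their identity is kept by signals from neighbouring endothelial cells, stellate cells and hepatocytes. They are also a major source of C1q, the molecule that starts the classical complement pathway.

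Depth and the state of the libraries bear on every value below. Reads on genes numbered 6507018 to 13519421 per library, of which the ribosomal RNA gene Rn45s took 72.5 to 75.5%, and the other genes kept 1704479 to 3551398. Libraries 3 and 4 of LKO vehicle were nearly as alike as repeat counts of 1 library would be (chi-square per degree of freedom 1.12, against 3.38 to 25.9 in the 17 other pairs) and were summed into 1 sample, which leaves 13 samples. Rbbp5 was lower in LKO by 0.89 ± 0.18 (SE) on the log2 scale, averaged over treatments (edgeR, Benjamini-Hochberg adjusted p = 0.0181), but its 4.15 CPM in the library labelled LKO vehicle 1 lay within the 4.07 to 6.41 of the WT samples. CPM is the standard per-depth unit, here the reads of a gene divided by its library's TMM-scaled size. WT tunicamycin 3 also stood apart: hemopexin (Hpx), a plasma protein made by hepatocytes, was at 696 CPM there and at 2787 and 2901 CPM in WT tunicamycin 1 and 2. The stress chaperone Hspa5 was at 786 CPM in WT tunicamycin 3, above the 197 to 253 CPM of WT vehicle. In WT tunicamycin 1 and 2 Hspa5 was at 854 and 313 CPM. LKO samples had 116.5 to 173 CPM of Hspa5 with vehicle and 142 to 229 CPM after tunicamycin, with LKO tunicamycin 2 the lowest of its group.

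The promoters of C1qb and C1qc are shown because the C1q chains are encoded side by side and these were the promoters of the set that held the motif searched. C1qb, C1qc and C1qa lie in this order within 18719 bases of chromosome 4 (136880126 to 136898844, GRCm38.p6, the assembly called mm10), with 3600 and 2979 bases between neighbours. The sequences are the 250 bases before the start used in the RefSeq promoter table (GRCm38.p6), written 5′ to 3′ on the gene's strand, and the capitals mark the core of the motif bound by PU.1, a transcription factor of myeloid cells, read as AGGAAGT on the opposite strand. They cover chr4:136886201-136886450 (minus strand) for C1qb and chr4:136892915-136893164 (minus strand) for C1qc.

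C1qb: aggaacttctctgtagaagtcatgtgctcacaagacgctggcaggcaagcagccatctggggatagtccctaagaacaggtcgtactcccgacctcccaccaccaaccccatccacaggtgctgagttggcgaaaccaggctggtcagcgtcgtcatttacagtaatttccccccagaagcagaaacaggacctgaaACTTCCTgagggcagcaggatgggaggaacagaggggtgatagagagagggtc
C1qc: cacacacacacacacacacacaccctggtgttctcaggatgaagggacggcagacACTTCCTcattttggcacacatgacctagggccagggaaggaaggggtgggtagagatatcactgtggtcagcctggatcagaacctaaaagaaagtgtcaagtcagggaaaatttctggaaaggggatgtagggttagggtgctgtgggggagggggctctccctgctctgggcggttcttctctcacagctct

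The match begins 53 bases before the table's start of C1qb and 195 bases before that of C1qc. For C1qc this start (136892914) is also the end of the deposited locus, and 22 of the 250 bases lie inside the longer RefSeq gene. The first transcribed bases of 5 of the 8 entries were found near the start of a GENCODE transcript. C1qc was among these and C1qb was not. The table's start of C1qb (136886200) is the 5′ end of the RefSeq gene, while the deposited locus ends at 136886177. Of the 8 genes of the set that had an entry, these 2 held the motif on either strand, and 2109 of all 27025 promoters of the same length (7.80%) held it. A match of letters is a description and no evidence of binding. Elsewhere in the genome (GRCm38.p6), Clec4f lies on chromosome 6 (83644542 to 83656116), Vsig4 on chromosome X (96247201 to 96293438) and Cd5l on chromosome 3 (87357881 to 87371074). Timd4 (46810786 to 46844333) and Cd68 (69664213 to 69666170) lie apart on chromosome 11, Marco on chromosome 1 (120474538 to 120505024) and Csf1r on chromosome 18.

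On the deposited FPKM, which scale reads by transcript length and so allow genes to be compared, C1qc had the highest level, with a median of 3.79 over 13 samples. Cd5l (3.64), C1qa (3.39), Clec4f (2.30), C1qb (2.26) and Vsig4 (1.84) followed. Csf1r (1.02), Cd68 (0.718), Marco (0.431) and Timd4 (0.306) were lowest. C1qa exceeded Clec4f, Vsig4 exceeded Csf1r and Csf1r exceeded Cd68 in 13 of 13 samples. C1qc exceeded Cd5l in 9 samples, Cd5l exceeded C1qa in 9, Clec4f exceeded C1qb in 5 and Marco exceeded Timd4 in 7, so these neighbours in the order did not separate.

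Summed over the 10 genes, the mean of WT livers was 63.4 ± 6.86 CPM with vehicle (SD, n = 3) and 75.3 ± 11.1 CPM after tunicamycin (n = 3). The mean of LKO livers was 63.3 ± 16.8 CPM with vehicle (n = 3) and 97.8 ± 32.3 CPM after tunicamycin (n = 4). The lowest sample was the library labelled LKO vehicle 1 at 44.0 CPM and the highest were LKO tunicamycin 2 at 133 CPM and LKO tunicamycin 4 at 117 CPM. LKO tunicamycin 1 (70.0 CPM) and 3 (70.9 CPM) lay within the range of the vehicle samples, so the group's higher mean rests on 2 of its 4 samples. The library labelled LKO vehicle 1 was the lowest of the 13 samples for 8 of the 10 genes, and LKO tunicamycin 2 was the highest for 9. In bulk tissue, fewer Kupffer cells and less of these RNAs per cell cannot be told apart.

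**Figure D1:**
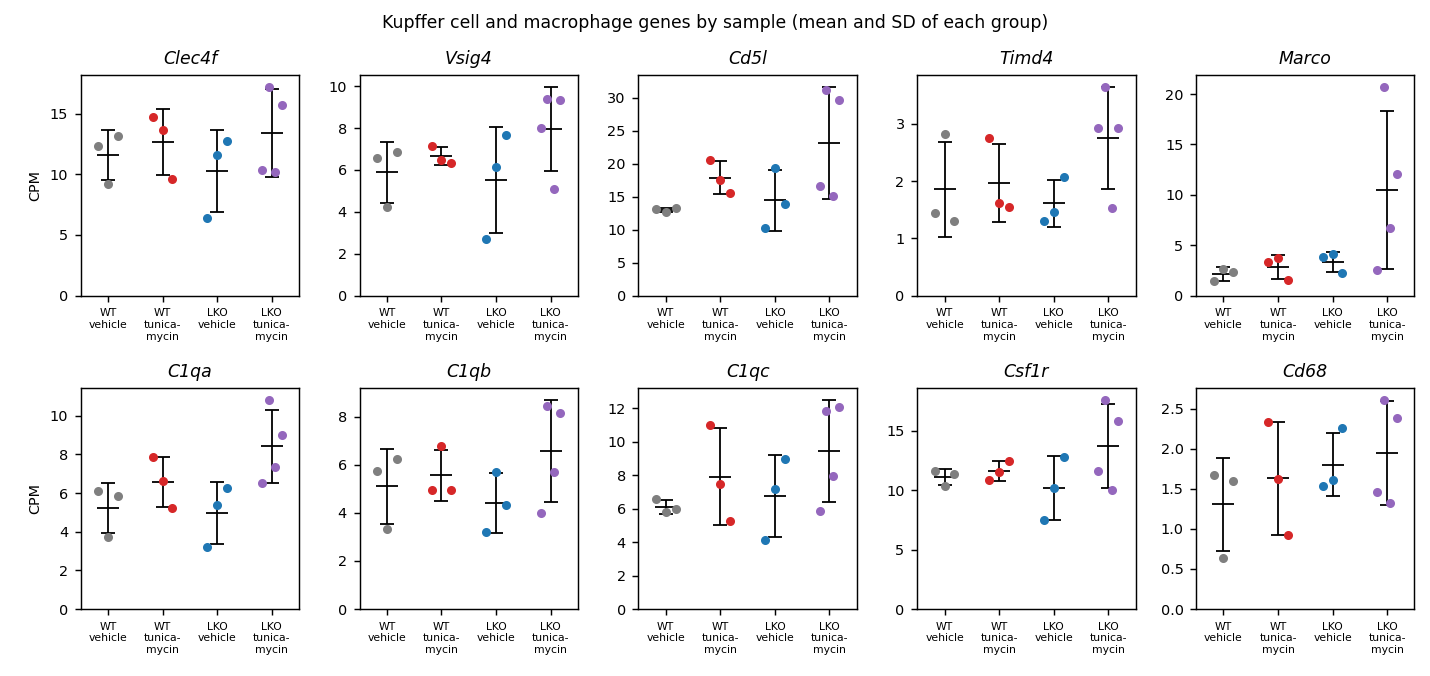
Level of each of the 10 genes in CPM (y axis, from 0, with its own scale per gene) in the 4 groups (x axis). Points are samples, with LKO vehicle 3 and 4 summed, and the black bars are the group mean and SD. LKO tunicamycin has the widest scatter for most genes, and Marco reaches 20.7 CPM in 1 sample of that group.

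None of the 10 genes was called, that is, reached a Benjamini-Hochberg adjusted p under 0.05 in edgeR, in any of the 7 contrasts fitted. The background share of called genes was 0.363% for tunicamycin against vehicle in WT, 0.0311% for the same treatment in LKO, 0.0415% for LKO against WT with vehicle and 0.861% for that difference after tunicamycin. It was 2.21% for the genotype effect averaged over treatments, 4.32% for the tunicamycin effect averaged over genotypes and 0% for the interaction, the difference between the tunicamycin effects of LKO and WT. Against such shares, 0 of 10 is no result about these genes. DESeq2, and limma on FPKM, also called none of the 10.

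A looser cut, an unadjusted p under 0.05 with a higher level (edgeR), was met by 0 of the 10 for tunicamycin in WT (7.93% of all genes), 6 for tunicamycin in LKO (5.83%) and 0 for LKO against WT with vehicle (4.71%). It was met by 1, Marco, for LKO against WT after tunicamycin (7.55%) and for the genotype average (8.98%), by Cd5l, Marco and C1qa for the tunicamycin average (10.3%), and by 0 for the interaction (2.13%). Levels of the 10 genes were correlated over samples (median Pearson correlation of log2 CPM 0.70). Counts out of 10, here and below, are therefore not counts of 10 independent observations. In the averages, 9 of 10 log2 fold changes were above 0 for genotype (49.3% of all genes) and 10 of 10 for tunicamycin (51.5%). Under total count scaling, 10 of 10 were above 0 for genotype, but so were 63.5% of all genes. Of the 10, 9 then lay above the median of all genes. With TMM, the median for genotype was 0.15. It was 0.25 without the library labelled LKO vehicle 1 (10 of 10), 0.27 without WT tunicamycin 1 (9 of 10), 0.09 without WT tunicamycin 3 (8 of 10), 0.08 without LKO tunicamycin 2 (8 of 10) and 0.06 without LKO vehicle 3 and 4 (7 of 10). The median for tunicamycin was 0.37, from 0.27 to 0.50 with each sample left out in turn, with all 10 above 0 each time.

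Tunicamycin in LKO livers gave the highest median of the set among the 4 pairwise comparisons. The scavenger receptor Marco was higher by 1.66 ± 0.46 (log2, SE), the complement chain C1qa by 0.71 ± 0.22, the phosphatidylserine receptor Timd4 by 0.71 ± 0.32 and the secreted protein Cd5l by 0.66 ± 0.24. All 10 log2 fold changes were above 0, as were 50.8% of all genes, and their median was 0.50 against 0.00 over all genes. Cd5l, Timd4, Marco, C1qa, C1qb and Csf1r were the 6 genes past the looser cut. The smallest adjusted p was 0.215, for Marco (edgeR). Without the library labelled LKO vehicle 1 the median fell to 0.32, Cd68 turned negative and 2 genes had an unadjusted p under 0.05. Leaving out LKO tunicamycin 2 or 4 also gave 2, with medians of 0.40 and 0.40, and leaving out any of the other samples gave 4 to 7.

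In WT livers the same treatment gave smaller values for 9 of the 10 genes, and every 95% interval spanned 0. All 10 log2 fold changes were above 0, against 51.7% of all genes, with a median of 0.26 against 0.01, from 0.06 for Csf1r to 0.46 for Cd5l. Under total count scaling, 5 of the 10 turned negative (Clec4f, Vsig4, Timd4, C1qb and Csf1r), while the median of all genes moved to -0.18. Under that scaling all 10 stayed above the median of all genes. The median of the 10 was 0.39 without WT tunicamycin 3, 0.12 (8 of 10 above 0) without WT tunicamycin 1 and 0.06 (5 of 10 above 0) without WT vehicle 2. The tunicamycin effect of LKO exceeded that of WT for 9 of 10 genes (46.5% of all genes), but no difference passed the test (smallest adjusted p = 0.982, edgeR). The median of these differences was 0.31, and it was 0.12 with 8 of 10 above 0 without the library labelled LKO vehicle 1, 0.23 with 8 of 10 without WT tunicamycin 3, 0.20 with 8 of 10 without LKO tunicamycin 2 and 0.47 with 9 of 10 without LKO vehicle 3 and 4.

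Genotype made no uniform difference with vehicle. Of the 10 genes, 4 were higher in LKO, against 50.9% of all genes, with a median log2 fold change of -0.02. No gene separated the 2 groups of samples without overlap, against 15.1% of all genes in either direction. Without the library labelled LKO vehicle 1, 8 of 10 were higher and the median was 0.19, and without LKO vehicle 3 and 4, 3 of 10 were higher and the median was -0.19. Without WT vehicle 1 or WT vehicle 3, 6 of 10 were higher, with medians of 0.08 and 0.06, and without LKO vehicle 2, 3 of 10 were higher, with a median of -0.08. After tunicamycin, all 10 were higher in LKO than in WT (48% of all genes), with a median of 0.25, and again none separated the groups, against 12.9% of all genes. Without WT tunicamycin 3 this became 8 of 10, with a median of 0.21. With all 10 higher, the median was 0.49 when WT tunicamycin 1 was left out, and 0.41 and 0.40 when LKO tunicamycin 1 or 3 was. It was 0.15 without LKO tunicamycin 2 and 0.16 without LKO tunicamycin 4, each with 9 of 10. The comparisons after tunicamycin and within LKO share the LKO tunicamycin samples.

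**Figure D2:**
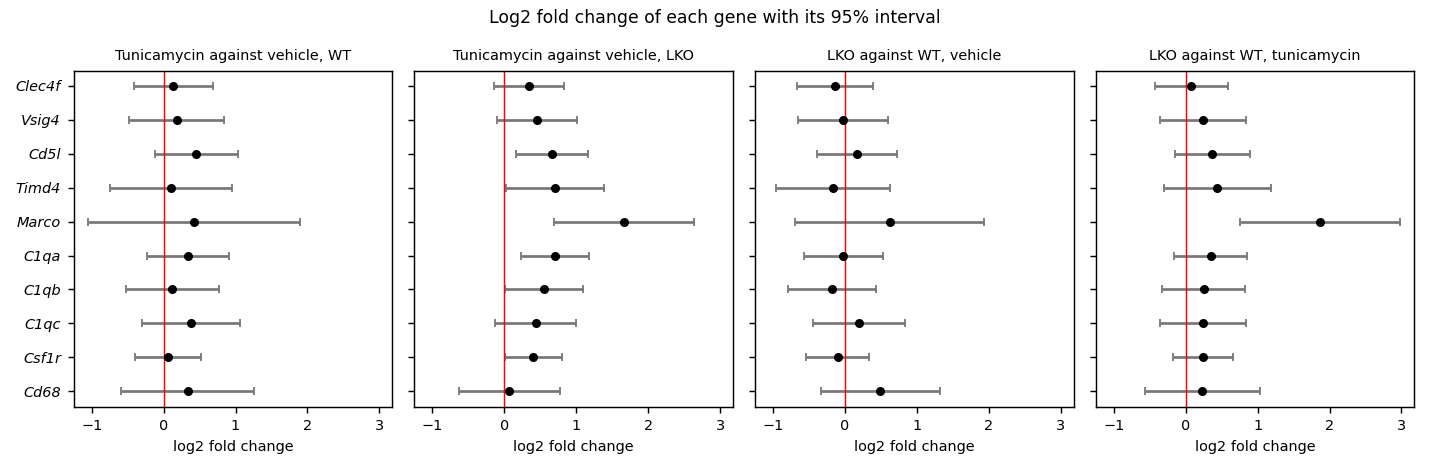
Log2 fold change (x axis) of each gene (y axis) in the 4 pairwise comparisons, as points with the 95% interval of edgeR's fit. The red line marks 0. The intervals of Marco in LKO livers after tunicamycin and against WT after tunicamycin begin at 0.68 and 0.75, and the intervals of 6 genes lie above 0 before adjustment for tunicamycin in LKO. Those of WT with tunicamycin and of LKO against WT with vehicle all span 0.

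Among receptors that bind particles and cells, Marco varied most. It recognises bacteria and other negatively charged particles. Its CPM were 1.44, 2.69 and 2.33 in WT vehicle samples 1 to 3, 3.30, 3.73 and 1.54 in WT tunicamycin samples 1 to 3, 3.79, 4.09 and 2.25 in LKO vehicle samples 1, 2 and the sum of 3 and 4, and 2.53, 20.7, 6.72 and 12.1 in LKO tunicamycin samples 1 to 4. In LKO tunicamycin, 3 of 4 samples exceeded every other sample, and sample 1 lay within the range of LKO vehicle. Marco was 3.64-fold higher in LKO than in WT after tunicamycin, with a 95% interval of 1.68 to 7.88 (adjusted p = 0.106, edgeR). This reached the threshold without the filter on low counts, under total count scaling and without LKO tunicamycin 1, and over 27 alternatives the adjusted p ranged from 0.000626 to 0.342. Leaving out each sample in turn gave log2 fold changes of 1.34 to 2.18.

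Set against the other 9 genes, Marco was also uneven. It had 2.20, 5.10 and 3.56 reads per 100 reads of the other 9 in WT vehicle, 4.02, 5.09 and 2.49 in WT tunicamycin, 9.44, 5.96 and 3.18 in LKO vehicle, and 3.76, 18.4, 10.5 and 11.5 in LKO tunicamycin. The WT samples stayed at or under 5.10, and 5 of the 7 LKO samples lay above that. Among these 5 was the library labelled LKO vehicle 1, which had the lowest summed level of the other 9 of all samples (40.2 CPM). Its Marco level of 3.79 CPM was below the 4.09 CPM of LKO vehicle 2, and its Rbbp5 level (4.15 CPM) lay within the WT range. LKO tunicamycin 3 had a high ratio and a summed level of the other 9 of only 64.2 CPM, within the 40.2 to 82.1 CPM of the samples outside its group. This ratio was not tested. The SD of Marco was 0.646 CPM in WT vehicle, 1.16 in WT tunicamycin and 0.984 in LKO vehicle (n = 3 each), and 7.83 CPM in LKO tunicamycin (n = 4), so its spread was mainly in that group. Its highest sample was 14.4-fold above its lowest.

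**Figure D3:**
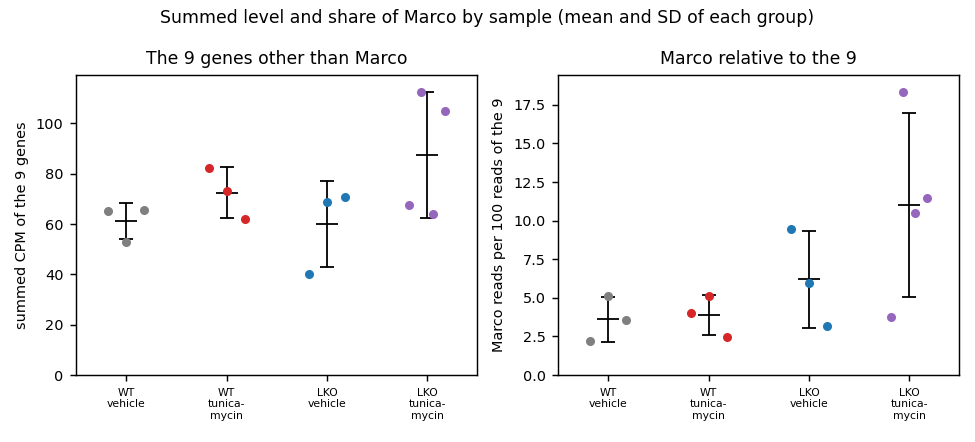
Left, summed CPM of the 9 genes other than Marco, and right, Marco reads per 100 reads of those 9 (y axes from 0), by group (x axis). Points are samples and black bars the group mean and SD. On the right the WT samples stay at or under 5.10 and LKO tunicamycin reaches 18.4.

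Clec4f, a C-type lectin found almost only on mouse Kupffer cells, moved less. Its CPM were 12.3, 9.23 and 13.1 in WT vehicle, 14.7, 13.6 and 9.57 in WT tunicamycin, 6.40, 11.6 and 12.8 in LKO vehicle, and 10.4, 17.2, 10.2 and 15.7 in LKO tunicamycin. All 4 groups overlapped, and the log2 fold changes ran from -0.14 for LKO against WT with vehicle to 0.35 for tunicamycin in LKO. Vsig4, the complement receptor that captures C3-coated particles, ranged from 2.73 CPM in the library labelled LKO vehicle 1 to 9.37 CPM in LKO tunicamycin 2. Its log2 fold change for tunicamycin was 0.18 ± 0.31 in WT and 0.45 ± 0.26 in LKO. Timd4, which binds phosphatidylserine on dying cells, had only 9 to 35 reads per sample. Its range was 1.30 to 3.64 CPM. The pooled within-group SD of Timd4 was 35.4% of its mean, beside a coefficient of variation of 25.5% from counting alone.

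Cd5l, a protein secreted by macrophages that is also called AIM, had the most reads of the set. Its CPM were 13.2, 12.7 and 13.3 in WT vehicle, 20.5, 17.5 and 15.6 in WT tunicamycin, 10.2, 19.4 and 13.8 in LKO vehicle, and 16.6, 31.2, 15.1 and 29.6 in LKO tunicamycin. In WT every tunicamycin sample exceeded every vehicle sample, a pattern found in 8.63% of all genes in this direction, and Cd5l was the only gene of the set to show it. In LKO the groups overlapped through LKO vehicle 2. Averaged over genotypes, Cd5l was 1.47-fold higher after tunicamycin, with a 95% interval of 1.13 to 1.92 (adjusted p = 0.0859, edgeR). It reached the threshold in 3 of 26 alternatives, which were no filter on low counts and leaving out LKO vehicle 2 or LKO tunicamycin 3, and the adjusted p ranged from 0.0101 to 0.282.

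The 3 chains of C1q, which pair with the proteases C1r and C1s to form the C1 complex, had similar levels of reads. For C1qa the CPM were 6.11, 3.72 and 5.83 in WT vehicle, 7.84, 6.65 and 5.25 in WT tunicamycin, 3.20, 5.40 and 6.29 in LKO vehicle, and 6.53, 10.8, 7.34 and 9.01 in LKO tunicamycin. In LKO every tunicamycin sample exceeded every vehicle sample, as in 5.03% of all genes in this direction, and C1qa was the only gene of the set to do so. Averaged over genotypes, C1qa was 1.44-fold higher after tunicamycin, with a 95% interval of 1.11 to 1.86 (adjusted p = 0.0962, edgeR, from 0.0397 to 0.313 over 26 alternatives). It reached the threshold without the filter and without WT tunicamycin 3.

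C1qb ran from 3.20 CPM (the library labelled LKO vehicle 1) to 8.46 CPM (LKO tunicamycin 2), and C1qc from 4.15 CPM (the library labelled LKO vehicle 1) to 12.1 CPM (LKO tunicamycin 4). Tunicamycin in LKO gave log2 fold changes of 0.55 ± 0.26 for C1qb and 0.44 ± 0.26 for C1qc. The share of C1q reads was 29.0 to 39.8% for C1qa, 20.8 to 34.7% for C1qb and 33.1 to 46.2% for C1qc, as the lowest and highest of the 13 samples. Over samples, the Pearson correlation of log2 CPM was 0.82 between C1qa and C1qb, 0.88 between C1qa and C1qc and 0.69 between C1qb and C1qc, beside a median of 0.70 over all pairs of the set.

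Csf1r, the receptor for the growth factors CSF1 and IL-34, was the steadiest gene of the set, with a pooled within-group SD of 20.8% of its mean over all samples. Its CPM were 11.6, 10.4 and 11.4 in WT vehicle, 10.9, 11.5 and 12.5 in WT tunicamycin, 7.46, 10.2 and 12.8 in LKO vehicle, and 11.6, 17.6, 9.99 and 15.8 in LKO tunicamycin. The WT samples lay within a narrow band, and the difference of tunicamycin in WT was 0.06 with a 95% interval of -0.40 to 0.52. Cd68, a glycoprotein of lysosomes in all macrophages, had 5 to 38 reads per sample, and its spread by the same measure was 35.4%, beside 29.1% from counting alone. At this depth, no difference of Cd68 was called. Its 95% interval for tunicamycin in LKO ran from -0.63 to 0.77 on the log2 scale, or 0.647-fold to 1.71-fold, so differences inside it could not be told from 0.

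The levels of the 10 genes were correlated over samples, also within groups. Over 13 samples, the 45 pairs had Pearson correlations of log2 CPM from 0.15 (Timd4 and C1qb) to 0.88 (Clec4f and Vsig4), with a median of 0.70. With the group means removed, the median was 0.64 and 31 of 45 pairs stayed above 0.5. Clec4f and C1qa then had the highest value, 0.96. Timd4 had the lowest mean correlation with the other 9 (0.48), followed by Marco (0.53) and Cd68 (0.56). The values share libraries, and Timd4 and Cd68 have few reads, so these are descriptions. The library labelled LKO vehicle 1 was the lowest sample for 8 genes and LKO tunicamycin 2 the highest for 9. Correlations without these samples, and the share of all gene pairs above 0.5, were not computed.

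**Figure D4:**
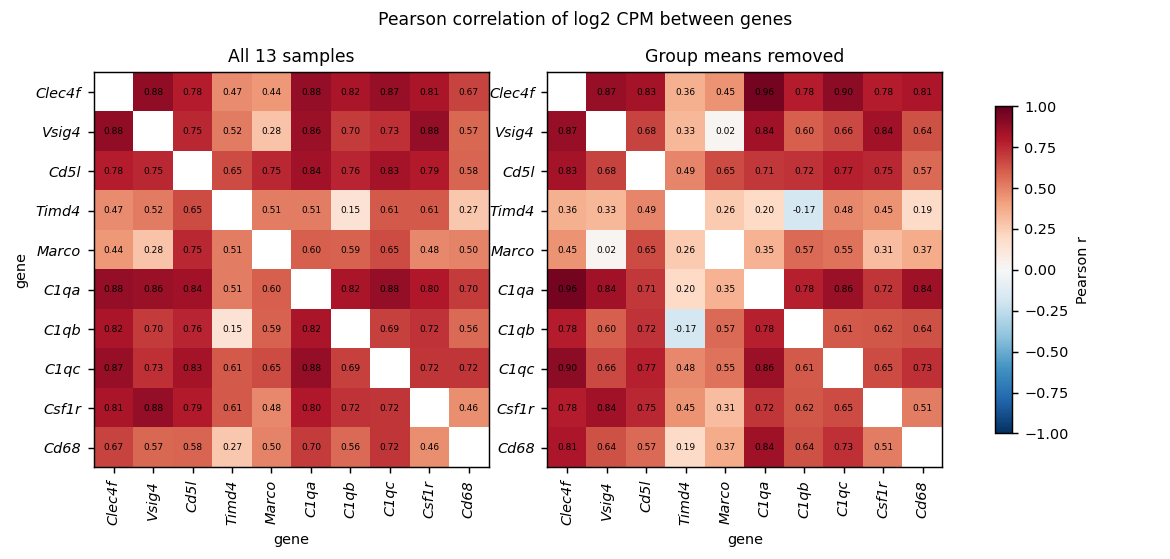
Pearson correlation of log2 CPM between each pair of the 10 genes (both axes), over all 13 samples (left) and with group means removed (right). The colour scale runs from -1 to 1. The medians are 0.70 and 0.64, and the rows of Timd4 and Marco are the palest.

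The other tested genes most like the mean of the set over 13 samples were Sdc3 (r = 0.94), Cfp (0.94), Lilrb4a (0.93), Adgre1 (0.90), Gja1 (0.88), Fcgr3 (0.87), Smc4 (0.86) and Ano6 (0.85). With group means removed they were Rel (0.94), Cfp (0.92), Folr2 (0.91), Gja1 (0.91), Sdc3 (0.90), Lilrb4a (0.89), Pirb (0.89) and Tcn2 (0.88). Adgre1, which encodes the macrophage antigen F4/80, properdin (Cfp) and the folate receptor Folr2 belong to the list of other resident Kupffer cell genes used here. The rest of the tested genes of that list were in neither ranking, and their correlations with the set are not given here.

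Of 12 further genes of resident Kupffer cells, 11 were tested, and Il18bp, which encodes a secreted inhibitor of interleukin-18, was the only gene of the list called in any contrast. Vehicle livers had 1.68 ± 0.565 CPM in WT (n = 3) and 2.68 ± 1.16 CPM in LKO (n = 3), and tunicamycin livers 3.84 ± 1.33 CPM in WT (n = 3) and 4.62 ± 0.644 CPM in LKO (n = 4). Averaged over genotypes it rose by 0.97 ± 0.23 on the log2 scale (adjusted p = 0.0269, edgeR), a call that 16 of 26 alternatives kept. The median of the 11 for tunicamycin in LKO was 0.23, with 7 above 0, against 0.50 for the set. For tunicamycin in WT it was 0.10, also with 7 above 0, against 0.26 for the set. For the genotype average the median of the 11 was -0.23, with 5 above 0, against 0.15 for the set with 9 of 10. The summed level of the list was 76.52 to 89.95 CPM in WT vehicle and 65.5 to 78.95 CPM in WT tunicamycin. In LKO it was 57.7 to 104.3 CPM with vehicle and 61.55 to 82.41 CPM after tunicamycin. Of 8 genes of iron and heme recycling, hemopexin (Hpx, 1.54 ± 0.28, adjusted p = 0.0131) and haptoglobin (Hp, 1.62 ± 0.31, adjusted p = 0.0155, both edgeR) rose in the same average, and hepatocytes make both. These calls were kept in 23 and 22 of 26 alternatives. Hpx also rose in WT taken alone (2.02 ± 0.41, adjusted p = 0.0427, edgeR), a call kept in 12 of 27 alternatives, with adjusted p up to 0.229.

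Of 13 general myeloid genes, 12 were tested and 1 was called. Mpeg1, the pore-forming perforin of macrophages, had 20.8, 21.3 and 27.1 CPM in WT vehicle, 32.6, 31.3 and 19.5 in WT tunicamycin, 46.4, 49.4 and 31.7 in LKO vehicle, and 38.2, 75.3, 76.5 and 56.9 in LKO tunicamycin. Within each treatment, every LKO sample exceeded every WT sample. Of all genes, 15.1% separated LKO from WT without overlap in either direction with vehicle, and 12.9% after tunicamycin. Averaged over treatments it was higher in LKO by 1.02 ± 0.17 (adjusted p = 0.00793, edgeR), a call kept in 24 of 26 alternatives, and after tunicamycin by 1.15 ± 0.24 (adjusted p = 0.0335, edgeR), kept in 15 of 27. All 12 tested genes of this list were above 0 in the genotype average (49.3% of all genes), with a median of 0.40. The Kupffer cell and macrophage set had 9 of 10 and a median of 0.15 (0.06 to 0.27 with each sample left out in turn). No such range is given here for the general myeloid list. The summed level of the list was 62.4 to 80.2 CPM in the 6 WT samples and 87.5 to 147 CPM in the 7 LKO samples. Mpeg1 had the most reads of the list (4826 over all samples). Its means were 23.1 and 27.8 CPM in WT with vehicle and tunicamycin, and 42.5 and 61.8 CPM in LKO. Mpeg1 is therefore a large part of this separation, and the sum without it was not computed. No test of the difference between the lists was made.

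Of 10 genes of monocytes and recruited macrophages, 3 were tested, and Cd9 rose with tunicamycin on average (0.80 ± 0.18, adjusted p = 0.0220, edgeR, kept in 18 of 26 alternatives). The summed level of the list was 5.64 to 6.11 CPM in WT vehicle, 6.33 to 12.3 in WT tunicamycin, 8.77 to 13.4 in LKO vehicle and 15.5 to 20.4 in LKO tunicamycin. Cd9 had the most reads of the list, 755 over all samples, and the other genes had from 17 (Ly6c2) to 117 (Ccr2). Its group means were 3.69, 5.79, 5.19 and 10.2 CPM in the same order, so the sum follows Cd9 in large part. No gene of the list was at 0 in all samples. The sum was highest in the group in which Marco was highest, as was the general myeloid list. The part of monocytes and recruited macrophages in the Marco values was not tested. Of 6 neutrophil genes 2 were tested, and S100a8 (2.51 ± 0.60, adjusted p = 0.0273) and S100a9 (2.34 ± 0.54, adjusted p = 0.0257, both edgeR) rose with tunicamycin on average, from at most 35 reads in any sample. These calls were kept in 14 of 26 and 14 of 25 alternatives, with adjusted p up to 0.211 and 0.259. Lymphocyte genes had at most 6 reads in any sample, and the 4 globin genes of red cells had 0. Of 12 cytokine and chemokine genes, 2 were tested and none was called, and Il6 and Ccl4 had 0 reads.

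Around C1q in the complement pathway, 6 of 6 partner genes were tested. C3, the protein that the pathway cleaves and deposits on particles, rose with tunicamycin on average (0.80 ± 0.21, adjusted p = 0.0429, edgeR, kept in 10 of 26 alternatives), as did Serping1, the C1 inhibitor (0.54 ± 0.13, adjusted p = 0.0313, edgeR, kept in 11 of 26). Of 11 growth factors and niche signals, among them Csf1, the ligand of Csf1r, 6 were tested and 0 called. The 10 endothelial genes were all tested, and 0 were called. In stellate cells 9 of 10 were tested, and the collagens Col1a1 (1.88 ± 0.34, adjusted p = 0.0101) and Col3a1 (1.37 ± 0.28, adjusted p = 0.0173) and the receptor Pdgfrb (1.10 ± 0.22, adjusted p = 0.0162, all edgeR) were higher in LKO on average. So was Spp1 among 2 of 5 bile duct genes tested (1.79 ± 0.39, adjusted p = 0.0270, edgeR). The calls of Col1a1, Col3a1, Pdgfrb and Spp1 were kept in 24, 22, 20 and 18 of 26 alternatives, and log2(FPKM) alternatives took the value of Pdgfrb down to 0.17. Among 9 of 10 hepatocyte genes tested, Hnf4a was called lower when the LKO and WT groups given tunicamycin were compared. Its log2 fold change there was -0.54 (adjusted p = 0.0405, edgeR, kept in 10 of 27 alternatives). The genotype average also called Hnf4a lower, at -0.34 (adjusted p = 0.0475, edgeR, kept in 7 of 26). Tunicamycin against vehicle within LKO gave -0.23 for Hnf4a and no call (adjusted p = 0.461, edgeR).

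**Figure D5:**
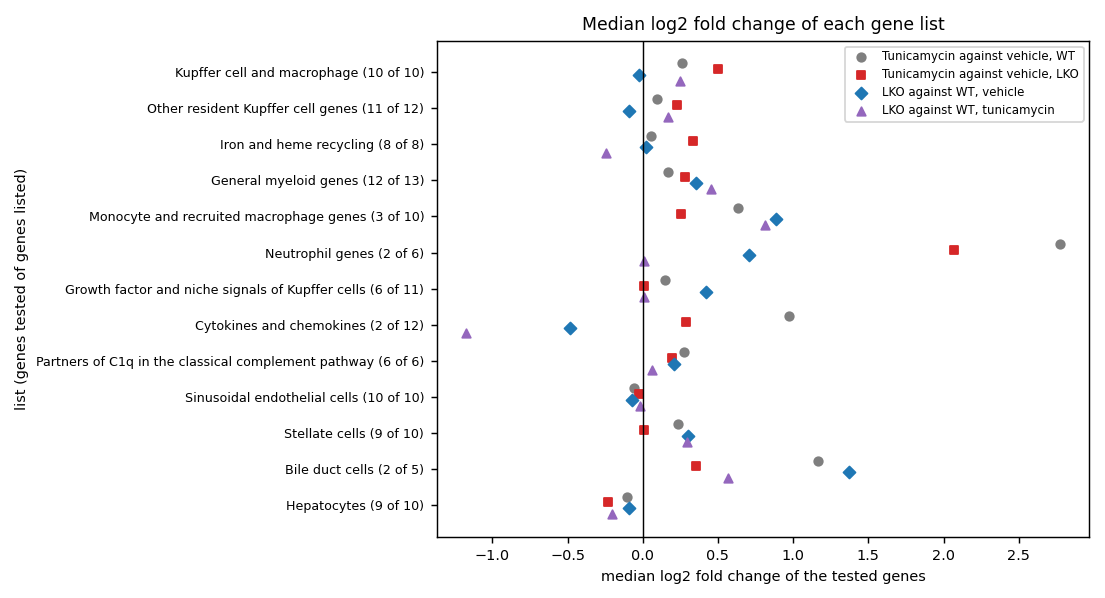
Median log2 fold change (x axis) of the tested genes of each list (y axis, with genes tested of genes listed) in the 4 pairwise comparisons, 1 symbol per comparison. The 10 Kupffer cell and macrophage genes lie at 0.26 and 0.50 for tunicamycin in WT and LKO. For LKO against WT they lie at -0.02 with vehicle and 0.25 after tunicamycin. Medians of lists with 2 or 3 tested genes rest on few reads.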

How the data were processed

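The authors' deposited gene counts are STAR reads per gene, and the column of reads on the gene's strand was used (99.5 to 99.6% of stranded reads). The deposited FPKM carry Cufflinks column names, per the file headers, with normalisation not stated. Per the submitters' processing notes the tools were Trimmomatic, STAR and Cufflinks and the build mm10. Versions are not given in the sources used here. Of the 24886 FPKM entries, the 277 names listed repeatedly were dropped, and 0 per-sample columns were unused. The FPKM column of LKO vehicle 2 sums to 101066, and the others to 158366 to 171081.

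Counts of 13 samples were fitted with edgeR 4.0.16 in R 4.3.3 (TMM, filterByExpr by group, quasi-likelihood test, 1 mean per group, 9 residual degrees of freedom, common biological coefficient of variation 0.155). Calls are genes with a p under 0.05 after Benjamini-Hochberg adjustment across the 9644 tested. Log2 CPM used a prior count of 2. The 7 contrasts are the 4 pairwise ones, the interaction and the 2 averages. Summing LKO vehicle 3 and 4 follows their near identity, and the labels do not say whether they are 1 mouse. Intervals are 95% and counting errors cover counting only, since reads carry no molecular identifiers. The scripts were tested on simulated counts.

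The genes, lists and alternatives were chosen with earlier results of these data known. Named genes are the 10 members of the set, Rbbp5, the called genes of the other lists (at most 5 a list, by smallest adjusted p) and the 8 genes most like the set by each of 2 measures. Hspa5 was added after its values were seen. Alternatives were DESeq2 1.42.0, its size factors, total count scaling with and without Rn45s, other filters, strand ignored, 14 libraries, limma 3.58.1 on FPKM, a replicate block, only the groups compared and leaving out each sample. Of the other lists, 2 genes (Ly6g and Ighm) were not matched by symbol and were not analysed here.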

Additional observations from a re-analysis of the deposited data

How the results depend on the processing

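Among the 10 genes, the count called was 0 in WT, with vehicle and for the interaction under every alternative run. Without the filter on low counts, 1 gene was called for tunicamycin in LKO, 1 for LKO against WT after tunicamycin, 1 for the average genotype effect and 3 for the average tunicamycin effect. Total count scaling called 1 after tunicamycin. Leaving out single samples gave 0 to 1 called after tunicamycin and for each average. The 6 genes at an unadjusted p under 0.05 for tunicamycin in LKO became 3 under total count scaling without Rn45s, DESeq2, log2(FPKM + 1) with a filter and the replicate block, 2 under log2(FPKM + 0.1), log2(FPKM + 1) without a filter and that fit without the LKO vehicle 2 column (added after the data were seen), and 2 to 7 with single samples left out.

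All signs that changed belong to log2 fold changes smaller than their SE, and the cause was not tested. For tunicamycin in WT, total count scaling gave -0.063 for Clec4f, -0.012 for Vsig4, -0.080 for Timd4, -0.081 for C1qb and -0.13 for Csf1r, and without Rn45s -0.011 for Clec4f, -0.035 for Timd4, -0.025 for C1qb and -0.0735 for Csf1r. On log2(FPKM + 1), with and without the filter and without the LKO vehicle 2 column, Timd4 was -0.011, Csf1r -0.0048 and Cd68 -0.025, and on log2(FPKM + 0.1) Csf1r was -0.0069 and Cd68 -0.10. Leaving out single samples gave -0.023 to 0.30 for Clec4f, -0.026 to 0.28 for Vsig4, -0.24 to 0.51 for Timd4, -0.13 to 0.26 for C1qb, -0.0016 to 0.11 for Csf1r and -0.041 to 0.61 for Cd68. For tunicamycin in LKO, Cd68 was -0.062 with the replicate block and -0.078 to 0.29 with single samples left out. For LKO against WT with vehicle, the 14 libraries gave 0.044 for Vsig4 and 0.029 for C1qa. On log2(FPKM + 1), Vsig4 was 0.060, on log2(FPKM + 0.1) 0.071, and without the LKO vehicle 2 column 0.015 for Vsig4 and -0.063 for Cd5l. Leaving out single samples there gave -0.32 to 0.071 for Clec4f, -0.33 to 0.23 for Vsig4, -0.099 to 0.33 for Cd5l, -0.42 to 0.26 for Timd4, -0.23 to 0.16 for C1qa, -0.069 to 0.39 for C1qc and -0.31 to 0.046 for Csf1r. After tunicamycin, Clec4f was -0.035 with the replicate block and -0.090 to 0.20 with single samples left out, and Cd68 -0.050 to 0.60.

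Replicate numbers did not pair the samples: 3 of 18 same-numbered pairs had a correlation of deviations above 0.1 (range -0.12 to 0.14), and 2 of 13 samples correlated best with their own number. Over all genes, the 35, 3, 4 and 83 calls of the pairwise contrasts ranged over 0 to 615, 0 to 153, 0 to 84 and 0 to 261, the 213 and 417 calls of the averages over 27 to 514 and 7 to 1085, and the 0 of the interaction over 0 to 2. Total count scaling moved the median of all genes from 0.01 to -0.18 for tunicamycin in WT and the split of calls: 28 higher and 7 lower became 33 and 115 for tunicamycin in WT, 30 and 53 became 142 and 22 for LKO against WT after tunicamycin, 130 and 83 became 226 and 34 for the genotype average, and 210 and 207 became 153 and 657 for the tunicamycin average. Groups of 3 or 4 samples and 5 to 273 reads per gene and sample limit what could be called.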
